A study of Mus musculus with 8 samples.

Results

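The GIMAP genes (GTPases of the immunity-associated proteins) of the mouse were followed in bulk RNA-seq of LSCs, the leukemic stem cells of CML mice. The members were the genes of the count table named Gimap1, Gimap3, Gimap4, Gimap5, Gimap6, Gimap7, Gimap8 and Gimap9, which are 8 of its 15576 genes, and 7 of them passed the filter on low counts. Gimap7 did not pass and is given by its counts. LSCs of untreated CML mice (CML, 4 libraries) were compared with LSCs of CML mice treated with imatinib (CML-TKI, 4 libraries). Imatinib is an inhibitor of the BCR-ABL tyrosine kinase, given by gavage at 400 mg/kg on alternate days for 4 weeks per the labels, whereas the study's text gives a lower dose for these RNA-seq mice, so the dose is uncertain. All 8 libraries came from bone marrow of C57BL/6 mice carrying both BCR-ABL and SCL-tTA, in which the SCL promoter drives tTA in stem and progenitor cells and BCR-ABL is expressed once tetracycline is withdrawn. The labels give neither the age of the mice nor the number of mice behind a library, so p-values measure the spread between these libraries. The labels describe a Lin-Sca1+cKit+Flt3-CD150-CD48+ sort for both groups, whereas the study defines LSCs as CD48- and CD150+.

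GIMAP proteins are small GTPases of immune cells whose genes lie side by side in a single cluster. They bind guanine nucleotides, several are anchored in internal membranes such as those of lysosomes, mitochondria or the endoplasmic reticulum, and they are best known for controlling the survival of lymphocytes. Loss of Gimap5 in mice or rats causes a loss of T cells, Gimap1 is needed by maturing T and B cells, and Gimap5 is also needed to maintain hematopoietic stem cells in mice.

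The 8 genes occupied 123.7 kb of chromosome 6 of GRCm38, the assembly of mm10 (chr6:48647186-48770851). From the lower coordinate, they followed the order Gimap8, Gimap9, Gimap4, Gimap6, Gimap7, Gimap1, Gimap5 and Gimap3. Gimap6 and Gimap3 lay on the minus strand and the other members on the plus strand. Gimap1 and Gimap5 were closest, 2401 bases apart. Gimap8 had the longest coding sequence, 2064 bases against 873 to 984 in the other members. An antisense gene, Gimap1os, and a read-through gene, Gm28053, are annotated over Gimap7, Gimap1 or Gimap5 and have no line of their own in the table, and the library kit does not mark strand, so their reads cannot be told apart from those of these members.

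Gimap3 and Gimap5 were the closest pair, with 89.9% identical bases over their aligned coding sequences, while the other pairs had between 54.6% and 74.1%. They were also the only members to share 50-base words, 190 in all, which are 9.07% of the Gimap3 transcript's words and 9.98% of those of Gimap5. The stretch below is shown because reads from it are hard to assign. It spans 120 coding bases with 2 differences, given in capitals, at coding positions 125 to 244 of Gimap3 (chr6:48765751-48765870, minus strand) and 137 to 256 of Gimap5 (chr6:48752634-48752753, plus strand), within 1 exon of each gene.
Gimap3: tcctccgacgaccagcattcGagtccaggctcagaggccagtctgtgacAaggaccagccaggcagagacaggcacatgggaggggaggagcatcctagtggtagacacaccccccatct
Gimap5: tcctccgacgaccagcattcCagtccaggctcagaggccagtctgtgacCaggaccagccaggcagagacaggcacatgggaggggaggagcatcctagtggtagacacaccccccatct

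Upstream sequences are shown for 4 members, because Gimap6 and Gimap5 lay on one side of the pattern described below and Gimap4 and Gimap3 on the other. Each is the 250 bases before the annotated start, from RefSeq on GRCm38.p6, for Gimap6 at chr6:48708245-48708494 (minus strand), Gimap5 at chr6:48745947-48746196 (plus strand), Gimap4 at chr6:48684328-48684577 (plus strand) and Gimap3 at chr6:48770852-48771101 (minus strand). Capitals mark matches, on either strand, to 4 motifs searched by their letters. For STAT factors, which the study is about, the letters were TTCNNNGAA. For RUNX factors of blood cells they were TGTGGT, for GATA factors of stem and erythroid cells they were AGATAA, and for ETS factors of blood and endothelial cells they were GGAAGT.
Gimap6: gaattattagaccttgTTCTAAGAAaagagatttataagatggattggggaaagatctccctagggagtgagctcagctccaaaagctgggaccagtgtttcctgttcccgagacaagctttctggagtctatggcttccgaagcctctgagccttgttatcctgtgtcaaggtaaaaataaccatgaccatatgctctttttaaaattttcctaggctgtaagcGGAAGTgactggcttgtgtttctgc
Gimap5: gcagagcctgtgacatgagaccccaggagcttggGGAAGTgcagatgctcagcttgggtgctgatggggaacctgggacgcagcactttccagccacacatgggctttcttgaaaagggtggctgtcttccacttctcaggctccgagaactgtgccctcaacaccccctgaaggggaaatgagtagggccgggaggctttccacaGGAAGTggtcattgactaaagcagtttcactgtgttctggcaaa
Gimap4: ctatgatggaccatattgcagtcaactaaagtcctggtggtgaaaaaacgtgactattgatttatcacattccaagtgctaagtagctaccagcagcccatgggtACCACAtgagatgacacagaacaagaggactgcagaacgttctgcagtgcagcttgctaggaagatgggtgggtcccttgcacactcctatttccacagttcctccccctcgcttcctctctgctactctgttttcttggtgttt
Gimap3: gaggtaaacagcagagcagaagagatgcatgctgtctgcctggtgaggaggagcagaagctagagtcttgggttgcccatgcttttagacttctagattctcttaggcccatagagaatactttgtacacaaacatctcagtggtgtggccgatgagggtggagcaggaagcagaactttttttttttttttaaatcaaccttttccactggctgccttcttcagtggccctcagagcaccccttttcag

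The 8 members had 9 such upstream sequences, since Gimap8 had 2 starts. The STAT letters occurred in 2 of the 9, those of Gimap6 and 1 start of Gimap8, and in 7.02% of 32851 upstream sequences genome-wide. The RUNX letters occurred in 3 of the 9 (Gimap4, Gimap7 and Gimap1) against 14% of all. The ETS letters occurred in 2 of the 9, once before Gimap6 and at 2 places before Gimap5, against 19.7% of all. The GATA letters were in 0 of the 9 against 9.99% of all. No 2 motif matches overlapped in these windows. These matches describe letters and do not show binding.

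Library totals ranged from 4939644 to 8620101 counts in CML and from 1041552 to 5104268 in CML-TKI, and CML-TKI 3 was the shallowest. Rn45s, the 45S ribosomal RNA gene, took 20.2% to 38.3% of the counts in CML, most in CML 5, and 9.23% to 22.5% in CML-TKI. Genes with a count numbered 14425 to 14629 in CML and 14744, 11835, 11900 and 12614 in CML-TKI 1 to 4. Levels are given as CPM, which are counts scaled to the library's depth with TMM normalization. A floor of 3 counts came to at most 0.580 CPM in CML LSCs and 0.570 to 3.29 CPM in CML-TKI LSCs. CML libraries 1, 2 and 3 stood close together, with a chi-square per degree of freedom of 3.90 to 5.93 between pairs against 93.7 to 96.8 between each of them and CML 5, the column whose number no label gives. Libraries varied more in CML-TKI than in CML (biological coefficients of variation 69.2% and 28.04%). For CML 1, 2 and 3 alone this coefficient was 11.0%. Whether these 3 libraries came from separate mice is not given, so the CML group may hold fewer than 4 independent samples.

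In CML LSCs, Gimap6 was the most abundant member and Gimap7 the least, and in CML-TKI LSCs the make-up of the cluster differed from library to library. For Gimap1, Gimap5 and Gimap6, all 4 CML-TKI libraries lay below all 4 CML libraries. Gimap3 and Gimap4 had their highest levels in CML-TKI 3 and CML-TKI 4. By the quasi-likelihood test of edgeR, 0 of the 7 tested members passed the threshold, a Benjamini-Hochberg adjusted p under 0.05 over 11937 genes. Of all genes tested, 10.2% passed it, 6.29% higher and 3.93% lower in CML-TKI. At an unadjusted p under 0.05, 4 members (Gimap1, Gimap3, Gimap5 and Gimap6) passed, 3 of them lower, beside 25.7% of all genes in either direction and 12.1% lower. That count was 2 without CML 1, 1 without CML 2, CML 3, CML 5 or CML-TKI 4, 4 or 5 without another library, and 0 with CML 1, 2 and 3 summed. DESeq2 called 1 member, Gimap5, and limma-voom with quality weights called 4, Gimap1, Gimap5, Gimap6 and Gimap8, where these tools called 18.1% and 21.5% of all genes.

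**Figure D1:**
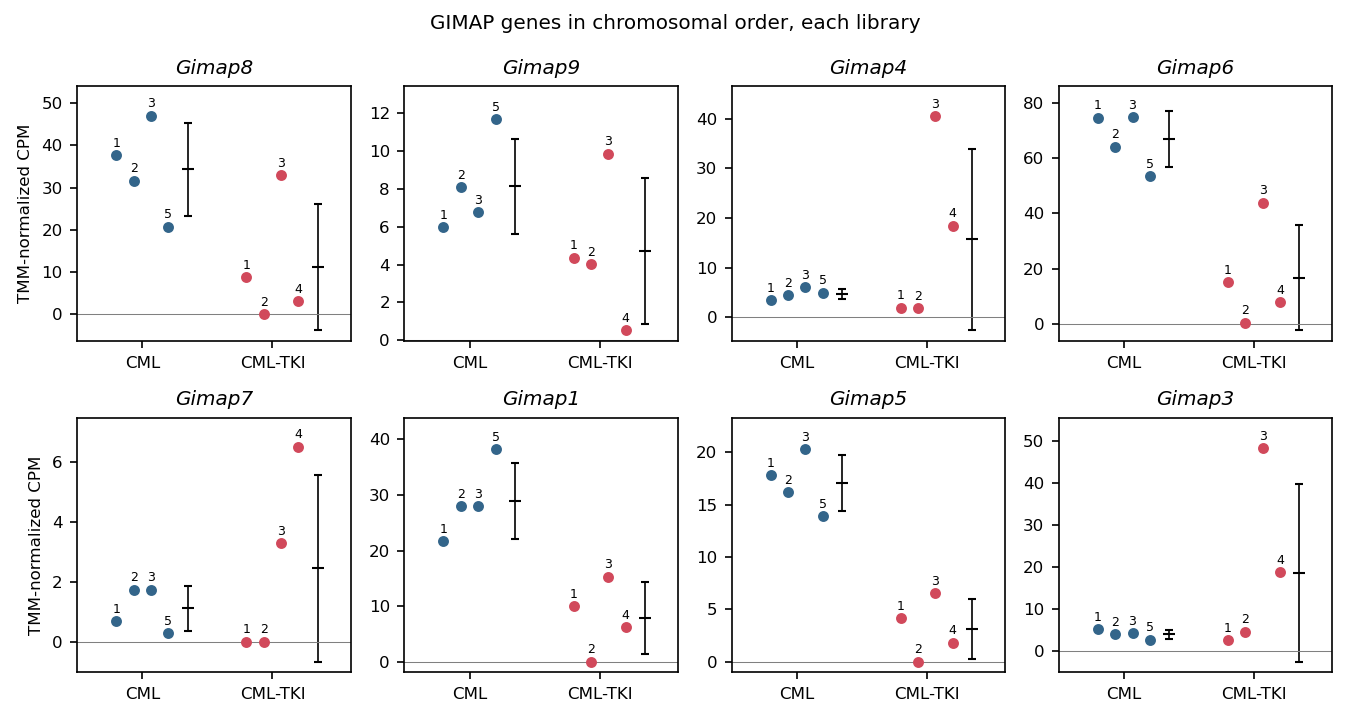
TMM-normalized CPM of each GIMAP gene in each library, in chromosomal order, with CML libraries in blue and CML-TKI libraries in red, numbered, and bars for the mean ± SD (n = 4). Gimap1, Gimap5 and Gimap6 show no overlap between the groups, and Gimap3 and Gimap4 are highest in CML-TKI 3 and CML-TKI 4.

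Gimap6, whose product binds the autophagy protein GABARAPL2, had 74.8, 64.3, 75.0 and 53.6 CPM in CML 1, 2, 3 and 5. In CML-TKI 1 to 4 it had 15.005, 0.310, 43.8 and 7.80 CPM. The groups did not overlap, but CML-TKI 3 lay close to the lowest CML library, and CML-TKI 2 held 1 count. The means were 66.9 ± 10.2 CPM (SD, n = 4) in CML and 16.7 ± 19.04 CPM (SD, n = 4) in CML-TKI. The log2 fold change was -2.13 (standard error 0.84, edgeR adjusted p = 0.143), and without CML-TKI 3 it was -3.07 with an adjusted p of 0.0447, in a fit that called 9.79% of all genes.

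Gimap5, a lysosomal member needed for lymphocyte survival, had 17.8, 16.2, 20.3 and 13.9 CPM in CML 1, 2, 3 and 5. The CML-TKI libraries 1 to 4 had 4.18, 0, 6.58 and 1.82 CPM. Every CML-TKI library was thus below every CML library, and the values of CML-TKI 3 and 4 rested on 5.90 and 7.20 counts. The means were 17.1 ± 2.70 CPM (SD, n = 4) and 3.14 ± 2.86 CPM (SD, n = 4), with a log2 fold change of -2.57 (standard error 0.84, edgeR adjusted p = 0.0829), the most negative value among the 7 tested members. Gimap5 passed the threshold in 2 of the 8 fits that left out a library, without CML-TKI 1 (adjusted p = 0.0455, 20.6% of all genes called) and without CML-TKI 2 (adjusted p = 0.0406, 7.38% called), and with DESeq2 its adjusted p was 0.00751. Counts of Gimap5 depended on how reads shared with Gimap3 were divided.

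Gimap1, which is needed for the development of mature lymphocytes, had 21.7, 27.99, 28.02 and 38.2 CPM in CML 1, 2, 3 and 5. It had 10.1, 0, 15.3 and 6.24 CPM in CML-TKI 1 to 4, so the groups were separate. The means were 28.97 ± 6.85 CPM (SD, n = 4) and 7.91 ± 6.46 CPM (SD, n = 4), and the log2 fold change was -1.95 (standard error 0.84, edgeR adjusted p = 0.175). Of the 7 tested members, 3 (Gimap1, Gimap5 and Gimap6) were lower without overlap, and 0 were higher. Among all genes 13.1% were lower and 10.3% higher without overlap, 23.4% in all.

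Gimap8, the largest member, had 37.7, 31.7, 47.0 and 20.8 CPM in CML 1, 2, 3 and 5, and 8.74, 0, 32.9 and 3.12 CPM in CML-TKI 1 to 4. CML-TKI 3 alone lay within the CML range, and the other CML-TKI libraries were below it. The log2 fold change was -1.78 (standard error 0.997, edgeR adjusted p = 0.296), and it was -3.05 without CML-TKI 3 (adjusted p = 0.0742). CML-TKI 2 had no count of Gimap1, Gimap5 or Gimap8, whereas 3 counts there would have been 0.930 CPM.

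Gimap9 had 5.99, 8.11, 6.76 and 11.7 CPM in CML 1, 2, 3 and 5 and 4.37, 4.03, 9.86 and 0.520 CPM in CML-TKI 1 to 4. The groups overlapped through CML-TKI 3, where the value rested on 9 counts. The log2 fold change was -0.90 (standard error 0.74, edgeR adjusted p = 0.491), -1.43 without CML-TKI 3 and -0.50 without CML-TKI 4.

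Gimap3, a close copy of Gimap5 that also acts in lymphocyte survival, had 5.31, 4.05, 4.25 and 2.75 CPM in CML 1, 2, 3 and 5. It had 2.66, 4.65, 48.2 and 18.7 CPM in CML-TKI 1 to 4. CML-TKI 3 and CML-TKI 4 were above every CML library, CML-TKI 2 lay within the CML range and CML-TKI 1 just below it. The means were 4.09 ± 1.05 CPM (SD, n = 4) and 18.6 ± 21.03 CPM (SD, n = 4), with a log2 fold change of 2.12 (standard error 0.84, edgeR adjusted p = 0.143). The log2 fold change was 1.09 without CML-TKI 3 (adjusted p = 0.357) and -0.18 without both CML-TKI 3 and CML-TKI 4 (adjusted p = 0.870). Without CML-TKI 1 Gimap3 passed the threshold (log2 fold change 2.47, adjusted p = 0.0335, in the fit that called 20.6% of all genes).

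Gimap4, a regulator of lymphocyte death, followed Gimap3 across libraries, with 3.40, 4.44, 5.99 and 4.95 CPM in CML 1, 2, 3 and 5 and 1.90, 1.86, 40.6 and 18.5 CPM in CML-TKI 1 to 4. Here CML-TKI 1 and 2 were below every CML library and CML-TKI 3 and 4 above every one. The log2 fold change was 1.67 (standard error 0.92, edgeR adjusted p = 0.290). It was 0.67 without CML-TKI 3 and -1.31 without CML-TKI 3 and CML-TKI 4 (adjusted p = 0.193).

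Gimap7 was near the floor, with 5, 9, 9 and 2 counts in CML 1, 2, 3 and 5 and 0, 0, 3 and 25 counts in CML-TKI 1 to 4. Only CML-TKI 4, at 6.504 CPM, lay well above the floor.

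The median log2 fold change of the 7 tested members was -1.78, where that of all genes tested was -0.00026. The members' median was -1.66 with DESeq2, -2.94 with limma-voom and -2.37 to -1.35 with 1 library left out. Signs were mixed, with 5 members negative and 2 positive. In CML-TKI 3 and CML-TKI 4, Gimap3 and Gimap4 lay above the CML range while Gimap1, Gimap5 and Gimap6 lay below it. In CML-TKI 1 and CML-TKI 2 no member lay above the CML range. Summing CML 1, 2 and 3 to 1 library kept the sign of all 7 tested members, and their adjusted p then ranged from 0.441 for Gimap5 to 0.736 for Gimap9.

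Between genes, levels were compared per kilobase of transcript. In CML the order of the levels was Gimap6 (42.0 ± 6.38 CPM per kb, SD, n = 4), Gimap1 (19.4 ± 4.59), Gimap8 (10.9 ± 3.502), Gimap5 (8.73 ± 1.38), Gimap9 (5.88 ± 1.82), Gimap4 (2.603 ± 0.596), Gimap3 (1.91 ± 0.490) and Gimap7 (0.873 ± 0.588). Neighbours in this order overlapped between libraries except Gimap6 with Gimap1 and Gimap9 with Gimap4. In CML-TKI Gimap6 was again first (10.5 CPM per kb) but was followed by Gimap4 (8.70) and Gimap3 (8.66), and every pair of neighbours in that order overlapped.

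The make-up of the cluster was then read within each library, which does not depend on library scaling. The members were divided into Gimap1, Gimap5, Gimap6 and Gimap8 on the one hand and Gimap3, Gimap4 and Gimap7 on the other after their values were seen, so no test was made. The first set held 90.8%, 88.5%, 90.1% and 86.6% of the GIMAP counts in CML 1, 2, 3 and 5. It held 80.8%, 2.86%, 49.1% and 30.1% in CML-TKI 1 to 4. The CML libraries were alike and the CML-TKI libraries ranged from close to CML down to a single count. The second set held between 5.42% and 6.40% in CML and 9.87% (95% Wilson interval 6.74% to 14.2%) in CML-TKI 1, 60% (43.6% to 74.4%) in CML-TKI 2, 46.0% (38.9% to 53.2%) in CML-TKI 3 and 69.1% (63.0% to 74.5%) in CML-TKI 4. Gimap9, in neither set, held 37.1% in CML-TKI 2 (13 of its 35 GIMAP counts) and 3.58% to 7.996% in CML. These intervals cover counting error only.

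**Figure D2:**
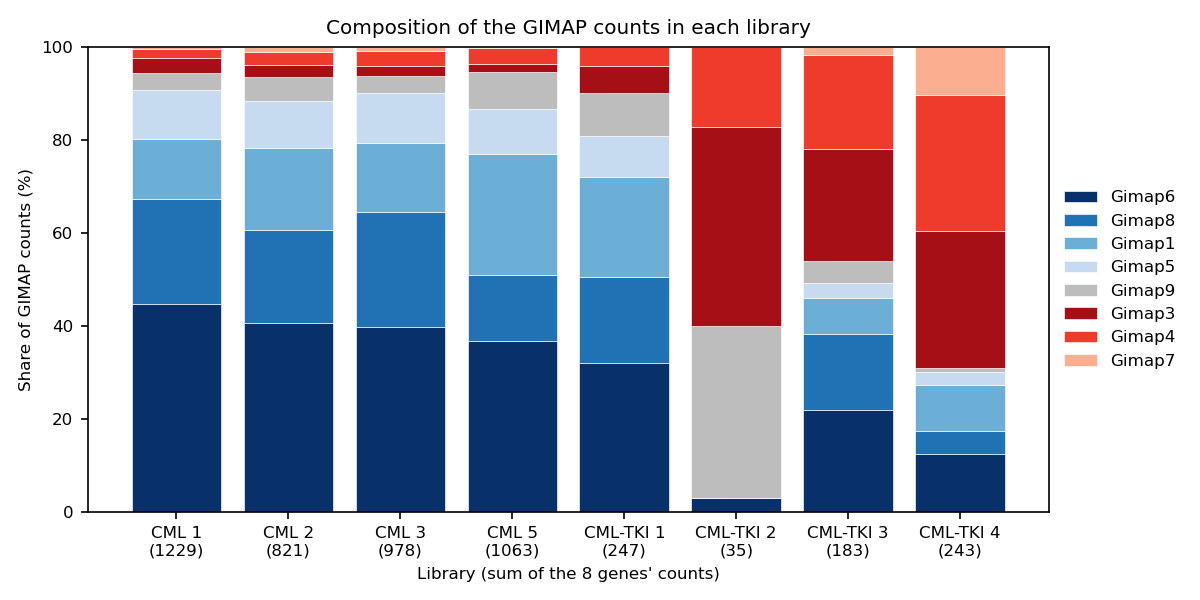
Share of each member in the GIMAP counts of each library (y axis, percent), with the sum of the 8 genes' counts in parentheses under each library. The first set (blue) holds at least 86.6% in each CML library but 80.8%, 2.86%, 49.1% and 30.1% in CML-TKI 1 to 4, where the share of the second set (red) is larger.

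Summed over the 8 members, the cluster had 167, 158, 189 and 146 CPM in CML 1, 2, 3 and 5 and 46.9, 10.8, 201 and 63.2 CPM in CML-TKI 1 to 4. CML-TKI 3 was above every CML library and the other 3 below every one. Its means were 165 ± 18.1 CPM (SD, n = 4) and 80.4 ± 83.1 CPM (SD, n = 4), a log2 ratio of -1.04 that was -2.02 without CML-TKI 3 and -0.68 without CML-TKI 2.

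Over the 8 libraries, the log2 CPM of Gimap1, Gimap5, Gimap6 and Gimap8 correlated with each other at Pearson's r of 0.95 to 0.99, and Gimap3 with Gimap4 at 0.91. Gimap7 correlated with Gimap4 at 0.85 and with Gimap3 at 0.74. Between Gimap3 and Gimap5, the closest copies, r was -0.16. These correlations describe 8 libraries of 2 groups that differ in depth, and no test was made.

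The values of Gimap3 and Gimap5 were not whole numbers in 7 of the 8 libraries, while their sum was whole in all 8 (within 0.01 counts), at 170, 105, 127 and 121 counts in CML 1, 2, 3 and 5 and 36, 15, 50 and 79 counts in CML-TKI 1 to 4. Gimap3 received 23.1%, 19.5%, 17.0% and 16.2% of this sum in CML and 39.9%, 100%, 88.2% and 90.9% in CML-TKI. Its share was therefore higher in every CML-TKI library. When both genes were counted as one, the level was 23.2, 20.3, 24.5 and 16.6 CPM in CML and 6.84, 4.65, 54.8 and 20.6 CPM in CML-TKI, and the log2 fold change was -0.032 (edgeR adjusted p = 0.983). How the authors' software divided the shared reads was not tested, so the opposite signs of this pair are uncertain.

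Markers of other cell types were read beside the GIMAP genes, and in bulk samples fewer cells of a type and less RNA per cell cannot be told apart. T cell markers were low in CML, where 6 or 7 of 15 had a count and their sum was 7.53 to 13.3 CPM. In CML-TKI 1 to 4 the sums were 20.5, 35.6, 161 and 108 CPM, with 11, 7, 13 and 15 of 15 markers having a count. Cd3e, Cd3g, Cd8a, Bcl11b and Themis, which define T cells, were at 0 in every CML library. In CML-TKI 4 Cd3e had 25 counts, Cd3d 24 and the interleukin 7 receptor gene Il7r 112, while CML-TKI 3 had 42 counts of Cd8a. CML-TKI 3 also had 40 counts of Lck, which had 27 to 54 in CML, 12 of Cd8b1 and 9 of Cd3d. It had 2 counts each of Cd3e and Il7r and 0 of Cd3g and Cd5. Of the 15 T cell markers 3 were tested and 0 passed the threshold with edgeR, while Cd28 passed at an unadjusted p under 0.05 (adjusted p = 0.0673) and with DESeq2 and limma-voom.

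B cell markers summed to 18.1 to 24.0 CPM in CML and to 21.1, 22.9, 439 and 18.5 CPM in CML-TKI 1 to 4, so that CML-TKI 3 alone was high. Between 4 and 8 of the 10 markers had a count in a library, and Igll1 was at 0 in all of them. In CML-TKI 3 Cd22 had 112 counts and Pax5 47. NK cell markers, of which 6 were in the table, summed to 15.2 to 31.2 CPM in CML and to 11.4, 44.3, 168 and 76.0 CPM in CML-TKI. Nkg7 had 50, 130, 88 and 244 counts in CML-TKI 1 to 4 and 8.31 to 24.9 CPM in CML. It carried much of these sums, with 96.4 of the 168 CPM in CML-TKI 3. Klrk1 had 30 and 1 counts in CML-TKI 3 and 4, Klrb1c 24.6 and 14, Klrd1 4 and 10, Eomes 2 and 23, and Prf1 4 and 0. Only Cd79b of the B cell markers and 2 NK cell markers were tested, and 0 passed with edgeR, although Nkg7 had an unadjusted p under 0.05 (adjusted p = 0.0879) and passed with the other tools. CML-TKI 3 and CML-TKI 4 were thus the libraries highest in the T and NK cell marker sums and in Gimap3 and Gimap4. The Lin- gate of the sort is meant to remove such cells, and their part in the GIMAP values was not tested.

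Stem and endothelial cell markers were read beside the first set of GIMAP genes. The sums of that set and of both marker lists were lower in CML-TKI without overlap. Within CML-TKI the libraries ranked differently by each sum. HSC markers summed to 1910 to 2420 CPM in CML and to 716, 241, 377 and 299 CPM in CML-TKI 1 to 4, and 4 of 11 tested, Kit, Slamf1, Meis1 and Hlf, passed the edgeR threshold as lower, with 0 higher. DESeq2 called 5 as lower and limma-voom 10. Slamf1, which encodes the CD150 of the sort, had 29.01 to 37.7 CPM in CML and 0.620 to 6.58 CPM in CML-TKI. Endothelial markers, many of which stem cells also express, summed to 1397 to 1657 CPM in CML and to 357, 72.2, 194 and 374 CPM in CML-TKI, and 4 of 9 tested (Cdh5, Tek, Eng and Tie1) passed as lower with edgeR, against 6 with DESeq2 and 6 with limma-voom. CML-TKI 2 had the lowest sums of both lists and of the first set of GIMAP genes. CML-TKI 3 had the highest sum of that set in CML-TKI (98.6 CPM against 0.310 to 38.0 CPM) without being highest in either marker list. Granulocyte markers summed to 161 to 268 CPM in CML and 1461 to 8427 CPM in CML-TKI, where 10 of 11 passed the edgeR threshold as higher (11 with DESeq2, 10 with limma-voom). All 8 monocyte markers passed it as higher with each tool, from 15.5 to 25.7 CPM in sum to 683 to 3746 CPM. The part of these shifts in the GIMAP values was not tested.

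**Figure D3:**
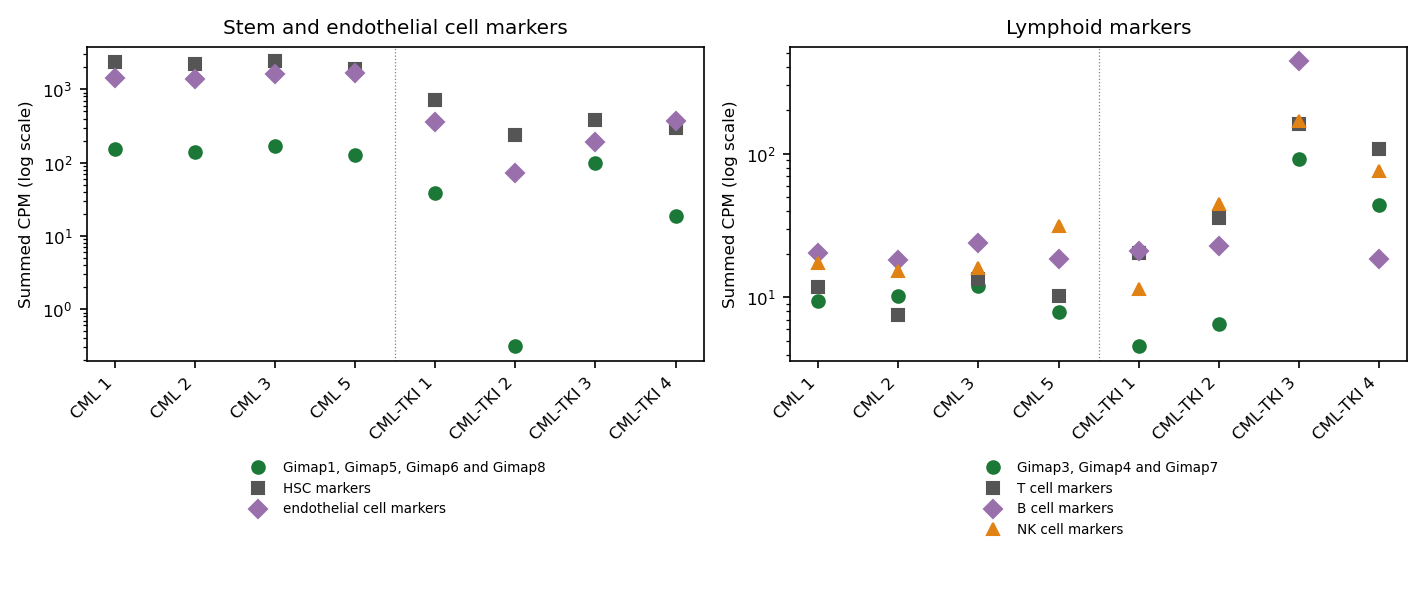
Summed TMM-normalized CPM in each library (log scale), on the left for the first GIMAP set beside HSC and endothelial markers, on the right for the second set beside T, B and NK cell markers. On the right CML-TKI 3 and CML-TKI 4 are high for the second GIMAP set, T and NK cell markers, and B cell markers are high in CML-TKI 3 alone.

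Genes that work with GIMAP proteins were read from a list of 15, all of them tested. These were the GABARAP and LC3 genes of autophagy, BCL2 family genes, Gsk3b, Ctnnb1 and Hspa8. With edgeR 1 rose in CML-TKI and 2 fell, beside 6.29% and 3.93% of all genes, and the median log2 fold change of the 15 was -0.055. Hspa8, a constitutive heat shock protein, rose by 0.98 on the log2 scale (standard error 0.19, adjusted p = 0.0122), from 1465 ± 243 to 2885 ± 284 CPM (SD, n = 4 each). Gabarapl1 fell by 2.001 on the log2 scale (standard error 0.47, edgeR adjusted p = 0.0269). Map1lc3b, which encodes LC3B, fell by 0.83 (standard error 0.20, edgeR adjusted p = 0.0280). Gabarapl2 had 25.6 ± 6.29 CPM in CML and 34.4 ± 23.2 CPM in CML-TKI (SD, n = 4 each, log2 fold change 0.39, adjusted p = 0.615). Bcl2, the survival gene, had a log2 fold change of -0.58 (edgeR adjusted p = 0.280) and its antagonist Bcl2l11 one of 1.41 (edgeR adjusted p = 0.0581). DESeq2 called 4 of the 15 and limma-voom 7, beside 18.1% and 21.5% of all genes. With edgeR the number past the threshold was 0 without CML 1, 0 without CML 3, 1 without CML 2, 1 without CML-TKI 4, and 0 with CML 1, 2 and 3 summed.

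The surroundings of the cluster were compared with it. Within 500 kb, 18 genes that are no members were in the table and 13 were tested. With edgeR 2 of them, Tmem176b and Tmem176a, passed the threshold, both lower, beside 3.93% of all genes, and 7 were lower without overlap between the groups, beside 13.1% of all genes. Tmem176b, 63.0 kb beyond Gimap3, had 197 ± 45.5 CPM in CML and 53.8 ± 36.5 CPM in CML-TKI (SD, n = 4 each), which gave a log2 fold change of -1.85 with a standard error of 0.44 (edgeR adjusted p = 0.0264). Tmem176a, the next gene, had 70.1 ± 14.4 and 22.2 ± 8.60 CPM (SD, n = 4 each), which gave -1.66 with a standard error of 0.32 on the log2 scale (edgeR adjusted p = 0.0112). Both encode membrane proteins known from myeloid and dendritic cells. On the other side, AI854703 (13.5 kb before Gimap8) had a log2 fold change of -1.41 (adjusted p = 0.300), Zfp775 one of -1.22 (adjusted p = 0.417) and Repin1, 48.1 kb away, one of -1.58 (adjusted p = 0.151), all with edgeR. Without CML-TKI 1, Zfp775 had -2.15 and Repin1 -2.55 (edgeR adjusted p = 0.0064), and limma-voom also called Repin1 (adjusted p = 0.0113). Krba1 and Gm5111 had log2 fold changes of -1.27 and -2.25 (edgeR adjusted p = 0.208 and 0.248). Both passed without CML-TKI 1 (edgeR adjusted p = 0.0412 and 0.00846) and with limma-voom (adjusted p = 0.0369 and 0.0248). The 13 neighbours had a median log2 fold change of -1.27, and 10 were negative, among them Zfp467 (-1.60) and Lrrc61 (-0.56). The 3 positive ones were Igf2bp3 (1.79, edgeR adjusted p = 0.254), Tra2a (0.54, edgeR adjusted p = 0.157) and Malsu1 (0.14, edgeR adjusted p = 0.912). The annotated genes Tmem176a and Tmem176b overlap, and reads were not known to be counted by strand. Tmem176b lost its call in 7 of the 8 fits that left out a library (adjusted p up to 0.0738), and both lost it when CML 1, 2 and 3 were summed.

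**Figure D4:**
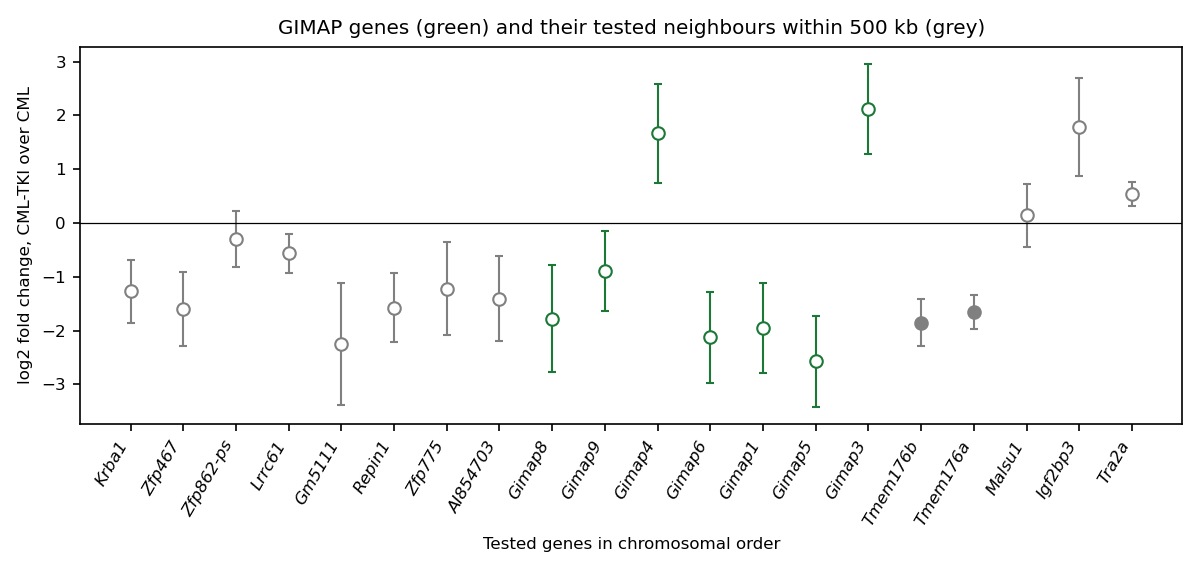
Log2 fold change of CML-TKI over CML, with bars of 1 standard error, for the tested GIMAP genes (green) and their tested neighbours within 500 kb (grey) in chromosomal order, filled where the adjusted p is under 0.05. Gimap4 and Gimap3 are positive among mostly negative genes, and the filled points are Tmem176b and Tmem176a.

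The genes whose levels followed the mean of the 7 tested members most closely over the 8 libraries were Pik3c2b (Pearson's r 0.980), Ppfibp2 (0.978), 1810014B01Rik (0.973), Inf2 (0.972), Fam49a (0.972) and Neurl1b (0.967), out of 9311 genes whose mean log2 CPM was 3 or more. These were the highest of many correlations over 8 libraries, and none of the 6 passed the threshold between the groups with edgeR. Pik3c2b, a class II phosphoinositide 3-kinase, had 37.0 ± 3.12 CPM in CML and 27.1 ± 32.7 CPM in CML-TKI (SD, n = 4 each, adjusted p = 0.675).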

How the data were processed

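The authors aligned paired reads of Nextera XT libraries to mm10 with STAR 2.6.1d and counted them over RefSeq transcripts with Partek (8.0 per the submitters' processing notes). They deposited estimated counts per gene without normalization, 1 column per library. Estimated counts were rounded and tested in edgeR 4.0.16 (R 4.3.3) with TMM, filterByExpr (minimum count 10, total 15), robust quasi-likelihood and Benjamini-Hochberg adjustment over 11937 genes. Each standard error is the log2 fold change over the root of its F statistic. Levels are TMM-normalized CPM, with a prior count of 2 on the log2 scale. limma 3.58.1 (voom) and DESeq2 1.42.0 were alternatives, and the test was checked on simulated data. Columns were matched to the labels by group and number, and the fourth CML column, numbered 5, was used by group alone. Same-numbered libraries had correlated deviations of -0.042, 0.097 and 0.093, so the numbers were not taken as pairs.

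The members and lists were chosen with earlier results of these data known. Named genes were all members, tested neighbours within 500 kb, list genes past the threshold (at most 4 by smallest p), defining markers near 0 and the 6 genes most alike. Gabarapl2, Bcl2, Bcl2l11, Cd8a, Cd8b1, Cd3d, Cd5, Lck, Il7r, Cd22 and Pax5 were named after their values were seen, as were the 2 sets of members. The same holds for Klrb1c, Klrk1, Klrd1, Eomes, Prf1, Pecam1 and Flt1. Coordinates, transcript lengths and 50-base words are from GRCm38 annotation, and upstream sequences are from RefSeq. The study's other experiments were not analysed here. The values of 1 marker gene are not reported here.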

Additional observations from a re-analysis of the deposited data

How the results depend on the processing

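The number of genes past the threshold (1220) was 2157 with DESeq2, 2563 with limma-voom, 122 with CML 1, 2 and 3 summed and 505 to 2504 with 1 library left out. GIMAP members past it (0) were 1 with DESeq2, 4 with limma-voom and 0 to 2 with 1 library left out. Neighbours past it (2) were 5 with limma-voom, 0 with CML 1, 2 and 3 summed, 0 without CML-TKI 3 and CML-TKI 4 (an alternative chosen after seeing the data) and 1 to 5 with 1 library left out. Partner genes past it (3) were 0 without CML-TKI 3 and 4 and 0 to 4 with 1 library left out. The sign changed for Gimap3 (-0.18) and Gimap4 (-1.31) without CML-TKI 3 and 4. It changed for Malsu1 from 0.14 to -0.020 with total counts without Rn45s, -0.12 with limma-voom and -0.036 with CML 1, 2 and 3 summed, and from -0.27 to 0.43 with 1 library left out, negative without CML-TKI 1 and without CML-TKI 3. Zfp862-ps ran from -0.69 to 0.020, positive without CML-TKI 3, with 1 library left out. The causes were not tested. Total counts without Rn45s moved the median of all genes to -0.14 and the share of calls that were higher from 61.6% to 50.7%, and the signs of the 7 tested members were the same under each scaling.

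With the replicate block on libraries 1 to 3 of each group, 193 genes, 0 members (0 at an unadjusted p under 0.05) and 0 neighbours passed in edgeR. Without the block on the same libraries, an alternative chosen after seeing the data, the numbers were 589, 0 (0 unadjusted) and 0. The shared numbers were not shown to pair the samples.

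Precision was limited by low counts for Gimap7, under 10 in every library except CML-TKI 4, for Gimap5 in CML-TKI 2, 3 and 4, for Gimap4 in CML-TKI 2 and for Gimap9 in CML-TKI 3 and 4, and CML-TKI 2 had 35 GIMAP counts in all.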
